A study of Mus musculus with 27 samples.

Results

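The activin and TGF-beta genes examined here were 10 genes chosen by symbol from the 24953 genes of the RNA-seq table of mK4 cells. They comprised the activin subunits Inhba and Inhbb, the ligands Tgfb1, Tgfb2 and Tgfb3, the secreted follistatin family proteins Fst and Fstl1, and the receptors Tgfbr1, Tgfbr2 and Tgfbr3. All 10 were found, and all 10 passed the filter on low values in every comparison. mK4 is a mouse cell line derived from metanephric mesenchyme, the embryonic tissue that forms the nephrons of the kidney. RNA from the parental cells (control), from Runx1KO cells and from ZebDKO cells was sequenced in 3 libraries each. Runx1KO cells carried a CRISPR-Cas9 deletion of exon 3 of Runx1, and ZebDKO cells carried deletions of exon 2 of Zeb1 and exon 1 of Zeb2, each removing a start codon. Control cells carried neither deletion, and no group received a ligand or an inhibitor. Knockout cells were grown from picked clones, and the number of clones sequenced is not given in the sources used here, so that clone and genotype cannot be told apart. Chromatin accessibility (ATAC-seq) and Runx1 and Runx2 binding (ChIP-seq) were measured in control and Runx1KO cells, with 3 samples per group, and not in ZebDKO cells.

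Activins are dimers of inhibin beta chains, Inhba encoding the beta A chain and Inhbb the beta B chain. Follistatin, encoded by Fst, binds activins and keeps them from their receptors. The TGF-beta ligands are secreted in a latent form, and once released they bind Tgfbr2, which recruits and phosphorylates the kinase Tgfbr1. Tgfbr3, or betaglycan, is a coreceptor that presents TGF-beta2 to Tgfbr2 and also binds inhibins. Activins and TGF-betas both signal through Smad2 and Smad3 with Smad4, and TGF-beta is a classical inducer of mesenchymal genes in epithelial cells. In the developing kidney these ligands and antagonists act in the outgrowth and branching of the ureteric bud. Runx1 binds DNA as a transcription factor and can act with Smads, while Zeb1 and Zeb2 repress epithelial genes.

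RNA levels are given as TPM, a unit that divides the reads of each gene by its length, scales every library to the same total and keeps no record of the sequencing depth. Differences were tested on the log2(TPM + 1) scale, which understates changes of low genes, and a gene was called when it differed over 2-fold with an adjusted p under 0.05. Between 12541 and 12697 genes reached 1 TPM in each of the 9 libraries, and the lowest correlation between libraries of a group was 0.994, so no library stood apart. Of the 10 metanephric mesenchyme markers examined, 6 had a mean of at least 1 TPM in control, 4 in Runx1KO and 6 in ZebDKO cells, and Six2 and Hoxd11 were at 0 in control cells. The markers under 1 TPM in Runx1KO cells alone were Osr1 and Gdnf. Osr1 had means of 66.4 TPM in control, 0.4 in Runx1KO and 18.2 in ZebDKO cells, and Gdnf of 12.7, 0.1 and 39.8 TPM. The RNA level of a targeted gene in its own knockout could not check the labels, since TPM was summed over whole genes. The paper also reports lower Zeb1 and Zeb2 RNA in Runx1KO cells, and libraries labelled Runx1KO had the lowest values of both. Runx1 was at 18.7, 15.6 and 17.9 TPM in control, at 30.3, 30.1 and 28.5 TPM in Runx1KO and at 9.4, 10.5 and 10.4 TPM in ZebDKO libraries. Zeb1 was at 14.2 to 15.6 TPM in control, at 0.1 to 0.2 TPM in Runx1KO and at 14.8 to 16.8 TPM in ZebDKO libraries, and Zeb2 at 4.9 to 5.5, 0.2 and 1.6 to 1.8 TPM. The summed level of 7 epithelial markers, which moved with both knockouts, was 2.8 to 5 TPM in control, 2660 to 2741 TPM in Runx1KO and 1150 to 1209 TPM in ZebDKO libraries, with Epcam at 0 in control and Runx1KO cells. Krt8 made up most of this sum, with means of 2353 TPM in Runx1KO and 1050 TPM in ZebDKO cells, and Cdh1 was at 0.1 to 0.6 TPM in all libraries. The summed level of 5 blood cell markers was 2.5 to 3.2, 30.9 to 32.8 and 26.1 to 29.3 TPM, with Ptprc at 0 in all lines, that of 5 endothelial markers at most 5.8 TPM in any library, and that of 3 renal stroma markers 144.5 to 157.3, 92.9 to 98.1 and 82.8 to 86.5 TPM. Csf1r made up most of the blood cell sum in the knockouts, with means of 0.7 TPM in control, 29.7 in Runx1KO and 24.5 in ZebDKO cells. General mesenchymal markers, among them Zeb1 and Zeb2, summed to 3037 to 3173, 2924 to 2985 and 2276 to 2311 TPM. Vim made up most of this mesenchymal sum, with means of 2803, 2806 and 2089 TPM, and Cdh2 had means of 267, 142 and 183 TPM. The part of these shifts in the results below was not tested. In a bulk sample, fewer cells of a type and less RNA per cell cannot be told apart.

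In Runx1KO cells Inhbb was almost lost, Tgfb2 and Tgfbr3 fell and Inhba rose, whereas Tgfb1 and Fstl1 did not pass the test and Fst passed it only under some alternatives. Thus 4 of 10 genes were called, 1 higher and 3 lower, where 13.0% of 13067 tested genes were called (7.91% higher and 5.10% lower). At an adjusted p under 0.05 with no size limit 7 of 10 genes passed, against 70.5%, and for 7 of 10 the groups did not overlap, against 73.7% of all tested genes. The median absolute log2 difference of the 10 genes was 0.51 and that of all tested genes was 0.28. In ZebDKO cells Inhbb, Fst and Tgfbr3 fell over 2-fold. By a little under 2-fold, Inhba and Tgfb1 were higher and Tgfbr1 was lower. Here 3 of 10 genes were called, all lower, where 14.8% of 12974 tested genes were called (7.50% higher and 7.28% lower). With median-ratio scaling or quantile normalization 5 were called, 3 lower and, in addition, Inhba and Tgfb1 higher. All 10 genes had an adjusted p under 0.05 and groups that did not overlap, while 79.4% and 81.0% of all tested genes did so. The median log2 difference over all tested genes was -0.18 in this comparison and was 0.00 after median-ratio scaling, and the median over the 10 genes was -0.55. The direct comparison of the knockouts called 4 of 10 genes, 2 higher and 2 lower in ZebDKO cells, where 15.8% of 13071 tested genes were called. In this comparison 9 of 10 genes had an adjusted p under 0.05 and groups that did not overlap, against 80.0% and 81.7% of tested genes. At a lower limit of 1.3-fold, 6, 8 and 9 of 10 genes were called in the 3 comparisons, where 37.2%, 52.0% and 51.9% of tested genes were. The comparison of the knockouts uses no control library, whereas the comparisons with control share the same 3 control libraries.

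**Figure D1:**
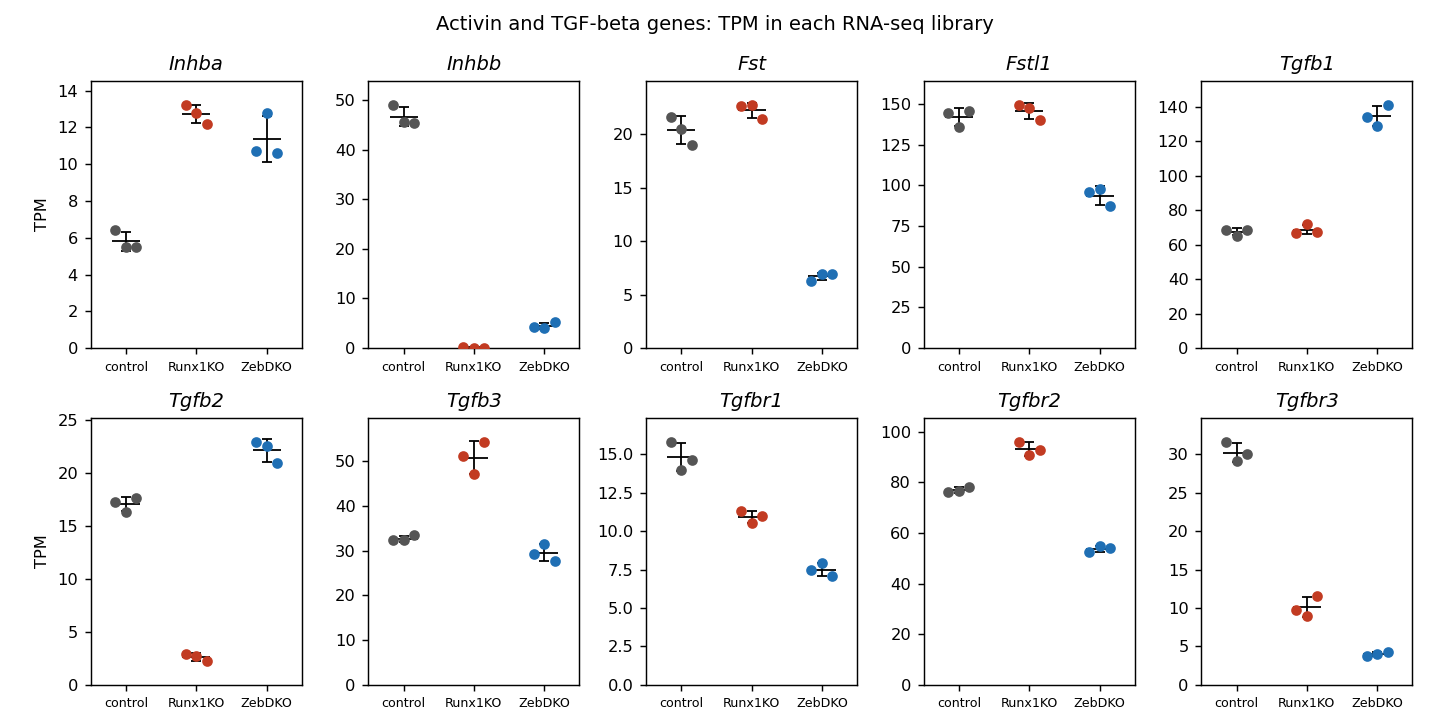
TPM (vertical axes, each starting at 0) of the 10 genes in the 3 control, 3 Runx1KO and 3 ZebDKO libraries. Points are libraries, and bars give the mean with the SD. Inhbb lay at 45.4 to 48.9 TPM in control libraries, at most 0.2 TPM in Runx1KO and at most 5.2 TPM in ZebDKO libraries, while Tgfb2 was low in Runx1KO libraries alone.

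The activin subunits moved in opposite directions. Inhbb was at 48.9, 45.6 and 45.4 TPM in control libraries, at 0.2, 0.1 and 0.1 TPM in Runx1KO libraries and at 4.3, 4.1 and 5.2 TPM in ZebDKO libraries. All Runx1KO and ZebDKO values lay below all control values, and all Runx1KO values lay below all ZebDKO values. The mean fell by 99.7% in Runx1KO cells, a log2 difference of -5.39 (SE 0.063, adjusted p = 4.74e-09). In ZebDKO cells it fell by 90.3%, a log2 difference of -3.11 (SE 0.080, adjusted p = 9.43e-08). ZebDKO exceeded Runx1KO cells by 2.28 on the log2 scale (adjusted p = 1.08e-06). Inhbb entered the Runx1KO comparison through its control libraries and the comparison of the knockouts through its ZebDKO libraries, and so had to differ in both. A second deposited table of the same control and Runx1KO libraries, written to 2 decimals, gave Inhbb at 23.06, 21.82 and 20.92 TPM in control and at 0.08, 0.04 and 0.04 TPM in Runx1KO libraries.

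Inhba was at 6.4, 5.5 and 5.5 TPM in control, at 13.2, 12.8 and 12.2 TPM in Runx1KO and at 10.7, 12.8 and 10.6 TPM in ZebDKO libraries. All knockout values lay above all control values, and the knockouts overlapped each other. The log2 difference was 1.02 in Runx1KO cells (SE 0.068, 95% interval 0.85 to 1.18, adjusted p = 1.28e-05), just past the 2-fold limit. It was below that limit without control replicate 2 (0.98) or 3 (0.98), or without Runx1KO replicate 1 (0.99), which leaves 3 called genes in place of 4. In ZebDKO cells it was 0.86 (SE 0.091, adjusted p = 7.59e-05), and 1.03 with median-ratio scaling and 1.06 with quantile normalization. The knockouts differed from each other by -0.16 (95% interval -0.34 to 0.03, adjusted p = 0.0982). The order of the subunits differed between lines. Inhbb exceeded Inhba in TPM in all control libraries, and Inhba exceeded Inhbb in all Runx1KO and ZebDKO libraries.

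Inhbb also had the most closing chromatin sites of the 10 genes. The authors sorted ATAC-seq peaks into those that closed in Runx1KO cells (Runx1-dependent), those that opened (Runx1KO-induced) and those that did neither (Runx1-independent). Inhbb lies on the minus strand at chr1:121312042-121318825 (mm9). A Runx1-dependent peak of 2225 bp at chr1:121317285-121319509 covered its annotated start, a position covered by such a peak in 1.73% of the 11245 tested genes with a position. It was 1 of 7 Runx1-dependent peaks within 100 kb of the start, of which 6 had Inhbb as their nearest coding start. The peak 35.7 kb upstream overlapped a Runx1-independent peak, so these lists are not fully separate. A further Runx1-dependent peak 17.5 kb downstream of the start, in intergenic sequence past the end of the gene, overlapped a Runx1 ChIP-seq peak of control cells (fold enrichment 5.47, −log10 q 6.73) and Runx2 peaks in both control and Runx1KO cells. The peak over the start overlapped a Runx2 peak of control cells and no Runx1 peak. The 250 bases before the start, all inside that Runx1-dependent peak, and the 200 bases around the Runx1 summit are printed because they lie in the accessible sites of control cells at and nearest to the gene that lost most of its RNA. Each was searched on both strands for the core Runx motif TGTGGT, the AP-1 motifs TGACTCA and TGAGTCA and the Zeb motifs CAGGTA and CAGGTG, none of which holds another, and neither held any of them, so no base is in capitals.
Inhbb promoter, chr1:121318826-121319075, minus strand: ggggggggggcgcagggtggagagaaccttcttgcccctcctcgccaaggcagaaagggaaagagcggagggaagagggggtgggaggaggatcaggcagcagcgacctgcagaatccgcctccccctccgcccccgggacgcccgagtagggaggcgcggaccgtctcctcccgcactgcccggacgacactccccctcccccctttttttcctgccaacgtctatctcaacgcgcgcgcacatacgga
Inhbb Runx1 summit, chr1:121301273-121301472, plus strand: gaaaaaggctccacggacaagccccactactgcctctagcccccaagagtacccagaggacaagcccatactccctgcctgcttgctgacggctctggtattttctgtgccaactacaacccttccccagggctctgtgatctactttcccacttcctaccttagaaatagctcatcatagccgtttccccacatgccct
Across all 9975 Runx1 summit windows of this length 33.5% held the Runx motif, 8.93% an AP-1 motif and 16.6% a Zeb motif, and across 22367 promoters of 250 bases the shares were 12.8%, 3.85% and 24.1%. The absence of a match says only that these letters are not in the window. Inhba, at chr13:16103684-16119044 on the plus strand, had 3 Runx1-independent peaks within 100 kb of its start, 1 of them over the start, and no Runx1-dependent, Runx1KO-induced, Runx1 or Runx2 peak.

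Each TGF-beta ligand had its own pattern. Tgfb2 was at 17.2, 16.3 and 17.6 TPM in control, at 2.9, 2.7 and 2.2 TPM in Runx1KO and at 22.9, 22.5 and 20.9 TPM in ZebDKO libraries. All Runx1KO values lay below, and all ZebDKO values above, all control values. The log2 difference was -2.33 in Runx1KO cells (SE 0.083, adjusted p = 5.17e-07) and 0.36 in ZebDKO cells (SE 0.053, adjusted p = 0.000491), and the knockouts differed by 2.69 (adjusted p = 2.18e-07). Tgfb1 was at 68.6, 65.1 and 68.7 TPM in control, at 66.9, 71.7 and 67.1 TPM in Runx1KO and at 133.9, 129 and 140.7 TPM in ZebDKO libraries. Control and Runx1KO values overlapped, with a log2 difference of 0.02 (95% interval -0.07 to 0.12, adjusted p = 0.629), whereas all ZebDKO values lay above both. The ZebDKO log2 difference of 0.98 (SE 0.042, adjusted p = 1.01e-06) lay just short of the 2-fold limit, and it was 1.18 with median-ratio scaling, 1.02 with quantile normalization and 1.01 without ZebDKO replicate 2. Between the knockouts Tgfb1 differed by 0.96 (adjusted p = 1.10e-06), and by 1.12 with median-ratio scaling. Tgfb3 was at 32.3, 32.3 and 33.4 TPM in control, at 51.1, 47.1 and 54.3 TPM in Runx1KO and at 29.3, 31.6 and 27.8 TPM in ZebDKO libraries. All Runx1KO values lay above all control values, a log2 difference of 0.62 (SE 0.054, adjusted p = 4.78e-05). In ZebDKO libraries Tgfb3 differed by -0.14 (adjusted p = 0.0399), which turned to 0.05 with median-ratio scaling and 0.04 with quantile normalization, so that no direction is given. Its adjusted p was above 0.05 under 10 of 15 alternatives, among them the replicate block (0.0762) and leaving out any 1 control library. The knockouts differed by -0.76 for Tgfb3 (adjusted p = 2.56e-05).

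Tgfb2 lies on the minus strand at chr1:188447065-188529871 (mm9). Its only Runx1-dependent peak within 100 kb, of 698 bp at chr1:188528984-188529681, lay in the noncoding part of its first exon, its middle 0.5 kb downstream of the annotated start and did not reach the start itself. No Runx1 peak overlapped it, and the Runx1 peak counted for Tgfb2 lay elsewhere, outside every ATAC-seq peak. Tgfb1 and Tgfb3 had Runx1-independent peaks over their starts. Tgfb1, in a gene-dense stretch at chr7:26472021-26490096, had 2 Runx1-dependent peaks within 100 kb, and both lay in other genes, Ccdc97 and Axl. Tgfb3, at chr12:87397694-87419991, had 4 Runx1-dependent and 3 Runx1KO-induced peaks within 100 kb, none of them overlapping a Runx1 peak, and a Runx1 peak 0.6 kb upstream of its start (fold enrichment 4.21).

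The secreted follistatin family genes were lower in ZebDKO cells. Fst was at 21.6, 20.5 and 19 TPM in control, at 22.6, 22.7 and 21.4 TPM in Runx1KO and at 6.3, 6.9 and 6.9 TPM in ZebDKO libraries. Control and Runx1KO values overlapped, with a log2 difference of 0.12 (95% interval -0.01 to 0.25, adjusted p = 0.0827), and all ZebDKO values lay below both. The adjusted p of this small Runx1KO difference was 0.0229 with median-ratio scaling, 0.0171 in the second table and 0.036 without control replicate 1. The ZebDKO log2 difference was -1.47 (SE 0.064, adjusted p = 1.08e-06), and that from Runx1KO was -1.59 (adjusted p = 2.77e-07). Fstl1, a follistatin-related secreted glycoprotein, was at 144.4, 135.9 and 145.9 TPM in control, at 149.1, 147.2 and 139.8 TPM in Runx1KO and at 96, 97.8 and 87.3 TPM in ZebDKO libraries. Its Runx1KO log2 difference was 0.03 (95% interval -0.06 to 0.13, adjusted p = 0.475) with overlapping groups, and all ZebDKO values lay below all control values (-0.60, SE 0.051, adjusted p = 2.73e-05). Fstl1 overlaps the annotated gene Gm15724, and reads of overlapping genes may not be told apart. Neither start lay in a Runx1-dependent peak. Fst, at chr13:115242470-115249159, had no Runx1-dependent or Runx1KO-induced peak within 100 kb, and its 3 Runx1 peaks lay outside all ATAC-seq peaks. Fstl1, at chr16:37776959-37836600, had a Runx1-dependent peak in an intron 24.3 kb downstream of its start that overlapped a Runx1 peak (fold enrichment 4.74) and Runx2 peaks of both lines. Another Runx1 peak in Fstl1, 38.1 kb downstream (fold enrichment 4.96), lay in a Runx1-independent peak with Runx2 peaks of both lines. The 3 Runx1KO-induced peaks within 100 kb of Fstl1 lay nearer to other coding starts. The summit window of the closing site held 2 Runx motifs and 1 AP-1 motif. Matches on either strand are in capitals here and in the windows printed later. The window is printed as a Runx-bound site that closed while the RNA of its gene did not pass the test.
Fstl1 Runx1 summit, chr16:37801326-37801525, plus strand: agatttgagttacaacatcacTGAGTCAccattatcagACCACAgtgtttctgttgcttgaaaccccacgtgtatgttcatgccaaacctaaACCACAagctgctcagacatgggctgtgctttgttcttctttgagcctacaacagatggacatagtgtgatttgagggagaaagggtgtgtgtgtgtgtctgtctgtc

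Among the receptors, the coreceptor Tgfbr3 had the largest differences in both knockouts. It was at 31.6, 29.1 and 30 TPM in control, at 9.8, 9 and 11.5 TPM in Runx1KO and at 3.8, 4 and 4.3 TPM in ZebDKO libraries. The 3 groups did not overlap, with control highest and ZebDKO lowest. The log2 difference was -1.50 in Runx1KO cells (SE 0.084, adjusted p = 5.21e-06) and -2.63 in ZebDKO cells (SE 0.059, adjusted p = 5.50e-08). The knockouts differed by -1.14 (adjusted p = 1.79e-05), a call that was lost with median-ratio scaling (-0.9999) and with quantile normalization (-0.88). Tgfbr1 was at 15.8, 14 and 14.6 TPM in control, at 11.3, 10.5 and 11 TPM in Runx1KO and at 7.5, 7.9 and 7.1 TPM in ZebDKO libraries. The groups stood in the same order as for Tgfbr3 without overlap, with log2 differences of -0.40 (SE 0.057, adjusted p = 0.000579) in Runx1KO cells and -0.89 (SE 0.064, adjusted p = 1.07e-05) in ZebDKO cells. Tgfbr2 was at 76, 76.5 and 78.1 TPM in control, at 95.9, 90.6 and 92.6 TPM in Runx1KO and at 52.5, 54.8 and 54.1 TPM in ZebDKO libraries. All Runx1KO values lay above, and all ZebDKO values below, all control values. The log2 difference of Tgfbr2 was 0.27 (SE 0.031, adjusted p = 0.000192) in Runx1KO cells and -0.51 (SE 0.033, adjusted p = 6.69e-06) in ZebDKO cells. The knockouts differed by -0.78 for Tgfbr2 (adjusted p = 9.36e-07).

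**Figure D2:**
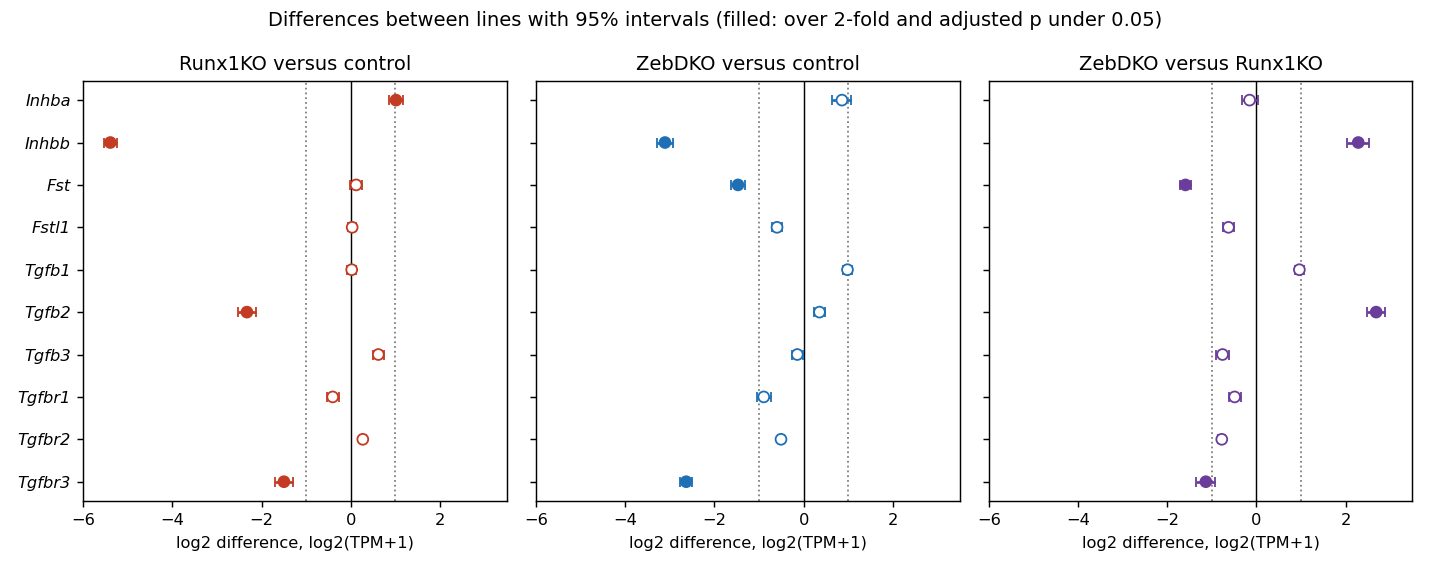
Log2 differences of the 10 genes on the log2(TPM + 1) scale (horizontal axes) in the 3 comparisons, with 95% intervals of the limma fit. Filled points were over 2-fold (dotted lines) with an adjusted p under 0.05. Inhbb stood at -5.39 in Runx1KO and -3.11 in ZebDKO cells, and Tgfb2 at -2.33 and 0.36.

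The starts of all 3 receptor genes lay in Runx1-independent peaks, as 74.5% of tested starts did. Tgfbr3, at chr5:107535589-107718648 on the minus strand, had 3 Runx1-dependent peaks within 100 kb, a pair of them in its own introns 10.1 kb and 20.9 kb downstream of the start. The peak at 20.9 kb (chr5:107697053-107698483) overlapped a Runx1 peak of control cells (fold enrichment 5.35, −log10 q 6.52) and Runx2 peaks of both lines. Tgfbr2, at chr9:115993415-116084383 on the minus strand, had a Runx1-dependent peak in an intron 22.3 kb downstream of the start, overlapping Runx2 peaks, and another 45.7 kb upstream that overlapped a Runx1 peak (fold enrichment 6.88, −log10 q 14.9). The Runx2 peak at that upstream site was listed in control and not in Runx1KO cells. Other peaks lay close to that site. Runx1KO-induced peaks lay 47.0 kb and 48.2 kb upstream of the Tgfbr2 start, and a Runx1-independent peak lay 43.7 kb upstream. This Runx1-independent peak overlapped a Runx1 peak (fold enrichment 7.97, −log10 q 19.1) and Runx2 peaks of both lines. Tgfbr1, at chr4:47366094-47427803 on the plus strand, had 1 Runx1-dependent peak, 59.1 kb upstream in an intron of Col15a1, and a Runx1 peak 0.2 kb upstream of its start (fold enrichment 4.38). The Runx1 summit windows of the closing sites of Tgfbr3 and Tgfbr2 are printed to set a gene that fell beside one that was higher by 0.27. The Tgfbr3 window held 2 Runx motifs, both within a run of TG repeats, and the Tgfbr2 window held 1. Neither held an AP-1 or Zeb motif.
Tgfbr3 Runx1 summit, chr5:107698238-107698437, plus strand: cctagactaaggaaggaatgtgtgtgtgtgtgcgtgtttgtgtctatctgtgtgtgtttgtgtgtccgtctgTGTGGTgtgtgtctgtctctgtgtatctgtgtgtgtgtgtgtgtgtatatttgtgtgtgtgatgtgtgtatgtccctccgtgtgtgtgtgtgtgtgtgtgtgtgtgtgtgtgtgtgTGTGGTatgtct
Tgfbr2 Runx1 summit, chr9:116129791-116129990, plus strand: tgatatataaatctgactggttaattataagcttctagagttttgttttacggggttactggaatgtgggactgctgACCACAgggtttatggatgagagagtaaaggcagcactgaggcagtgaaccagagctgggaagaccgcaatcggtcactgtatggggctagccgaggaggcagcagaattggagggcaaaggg
Tgfbr3 overlaps the annotated gene Gm8145, and reads of overlapping genes may not be told apart.

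Over all 10 genes, 8 had a Runx1-dependent peak within 100 kb of the start, where 56.0% of tested genes did, 6 had a Runx1KO-induced peak (68.0% of tested genes) and 9 had a Runx1 peak (73.4%). The counts held 22 Runx1-dependent peaks, of which 16 had the gene itself as the nearest coding start, 12 Runx1KO-induced peaks and 61 Runx1-independent peaks. A Runx1-dependent peak that overlapped a Runx1 peak was found within 100 kb of 5 genes (Inhbb, Fstl1, Tgfb1, Tgfbr2 and Tgfbr3), where 12.8% of tested genes had one, and for 4 of them, all but Tgfb1, the gene was the nearest coding start. Of these 5, Inhbb and Tgfbr3 were called lower in Runx1KO cells, Tgfbr2 was higher by less than 2-fold, and Tgfb1 and Fstl1 did not pass the test. Of the called genes without such a site, Tgfb2 had a Runx1-dependent peak that Runx1 did not overlap, and Inhba had none. The counts depended on the window. Within 20 kb of the start 4 genes had a Runx1-dependent peak (17.1% of tested genes), 1 a Runx1KO-induced peak (27.2%) and 3 a Runx1 peak (36.2%). With the gene body and 20 kb on each side as the window, the counts were 7 (28.3%), 3 (39.2%) and 7 (46.7%). With each peak given to its nearest start within 100 kb they were 7 (22.2%), 3 (27.2%) and 7 (31.9%). No start of the 10 genes lay in a Runx1KO-induced peak, as 3.25% of tested starts did. The peak lists were each given once per condition, so they hold no spread between replicates and no test was made.

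**Figure D3:**
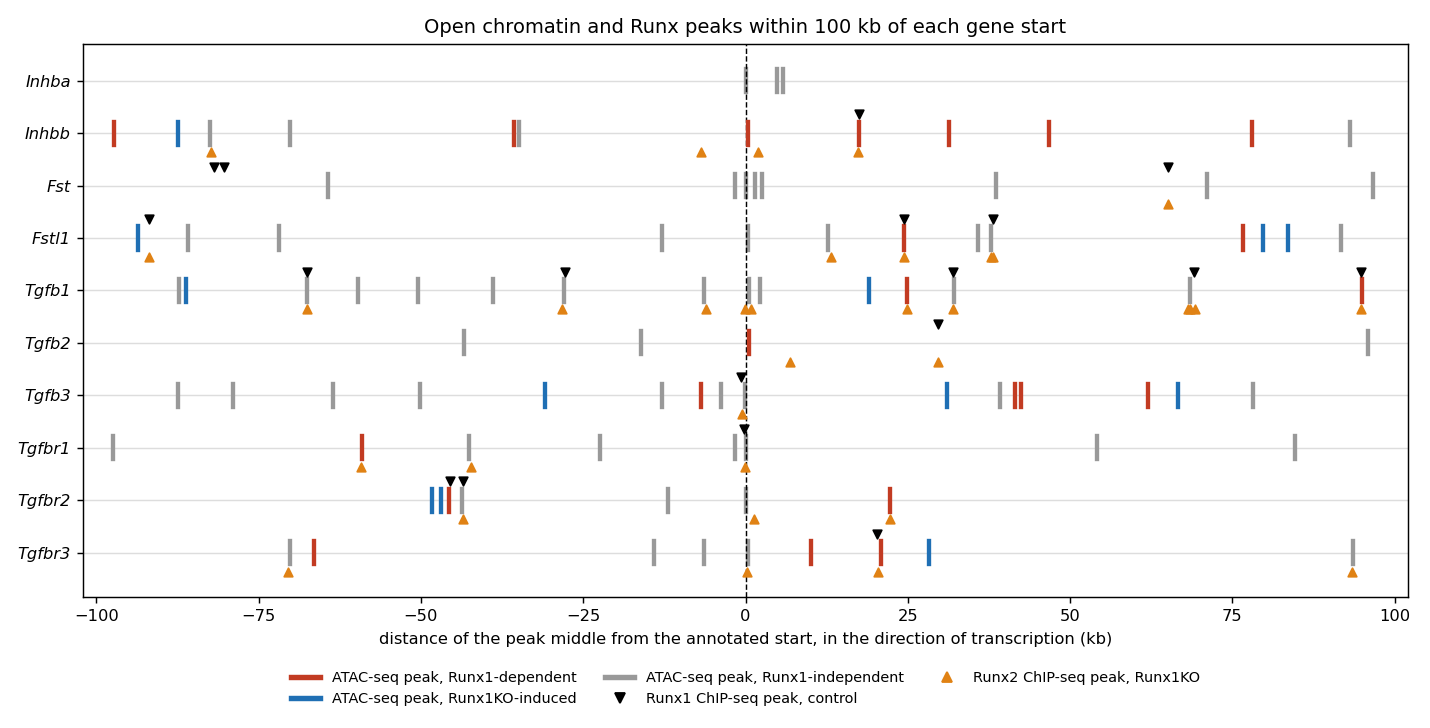
Position of ATAC-seq peaks (vertical marks, by class), Runx1 peaks of control cells (black triangles above each line) and Runx2 peaks of Runx1KO cells (orange triangles below it) relative to the annotated start of each gene (horizontal axis, kb in the direction of transcription). Inhbb had 7 Runx1-dependent peaks, 1 of them over the start, and Inhba had none.

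The order of the levels also differed between lines. In control cells it ran, from high to low, Fstl1, Tgfbr2, Tgfb1, Inhbb, Tgfb3, Tgfbr3, Fst, Tgfb2, Tgfbr1 and Inhba, and no neighbours in this order had overlapping ranges. Inhbb moved from the 4th place in control to the 10th in Runx1KO and the 9th in ZebDKO cells. In Runx1KO cells the ranges of Tgfbr1 and Tgfbr3 overlapped, and in ZebDKO cells those of Inhbb and Tgfbr3 did. Levels of different genes depended on the table: in the second table Tgfbr2 was first, Fst was 4th and Inhbb 6th in control cells, and the ratio of the tables was 2.13 for Inhbb and 0.658 for Fst. The gene lengths behind either table are not given in the sources used here.

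The genes whose pair of differences from control lay closest to those of Inhbb, Tgfb2, Tgfbr3 and Inhba, the 4 with the largest differences in Runx1KO cells, were sought among 12687 genes tested in both comparisons, over 9 libraries. For Inhbb these were Sulf2 (-5.30 in Runx1KO and -2.90 in ZebDKO cells, a distance of 0.23 on the log2 scale) and Ms4a4d (-4.89 and -3.00, distance 0.52). For Tgfb2 they were Mir6946 (-2.16 and 0.29, distance 0.18) and Oplah (-2.13 and 0.18, distance 0.27). For Tgfbr3 they were Apela (-1.33 and -2.53, distance 0.20) and Arrdc3 (-1.62 and -2.87, distance 0.27). For Inhba they were Msmo1 (1.05 and 0.90) and Trim47 (1.02 and 0.91), both at a distance of 0.05. Sulf2, Ms4a4d and Mir6946, with means of 0.37, 0 and 0 TPM in Runx1KO cells, passed the filter of that comparison through control libraries. Apela, with a mean of 0.3 TPM in ZebDKO cells, did so in the ZebDKO comparison. These genes therefore had to differ there.

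Of 61 further genes of the pathway, 43 were tested in each comparison. In Runx1KO cells 5 were called higher and 4 lower, where 7.91% and 5.10% of all tested genes were, with a median log2 difference of -0.03 beside -0.06 over all tested genes. In ZebDKO cells 9 were called higher and 3 lower, where 7.50% and 7.28% of all tested genes were, with a median of 0.19 beside -0.18. Among the other ligands, Inhbe, which encodes the activin beta E chain, rose from a mean of 0.03 TPM in control to 10.1 ± 1.08 TPM (SD, n = 3) in Runx1KO and 3.67 ± 0.40 TPM in ZebDKO cells. Gdf15, a stress-induced distant member of the family, rose in Runx1KO cells from 16.4 ± 1.97 to 103 ± 7.50 TPM (SD, n = 3), a log2 difference of 2.59, and differed by 0.26 in ZebDKO cells. None of the 6 tested receptors of the list was called in Runx1KO cells, and in ZebDKO cells the decoy receptor Bambi fell by 1.32 on the log2 scale.

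Among the genes that store or release latent TGF-beta, of which 6 of 12 were tested in Runx1KO and 7 in ZebDKO cells, Ltbp1 (-1.79) and the TGF-beta-binding proteoglycan Dcn (-1.70) fell in Runx1KO cells, and Ltbp4 (1.20) and the activator Thbs1 (1.04) rose. In ZebDKO cells Dcn fell (-1.67) and Itgb6, a subunit of an integrin that releases latent TGF-beta, rose (1.89). All 14 Smads and regulators were tested, and none was called in Runx1KO cells. In ZebDKO cells the inhibitory Smad7 (1.82), the corepressors Skil (1.04), Tgif1 (1.21) and Tgif2 (1.52) rose, and Ski (-1.13) fell.

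Of 12 tested genes widely used as readouts of TGF-beta, 8 had an adjusted p under 0.05 in both knockouts. Among these 8, 5 had differences of opposite sign, including Acta2, Fn1, Ccn2 and Snai1, 2 were higher in both and 1 was lower in both. Of 42 genes of the whole pathway list tested in both comparisons, these 12 included, 28 passed in both, and 10 of the 28 had opposite signs. Of all tested genes 70.5% passed in Runx1KO and 79.4% in ZebDKO cells. The shares of all genes that passed in both, or with opposite signs, were not computed. Some of the 10 opposite signs rest on small differences, and the signs were not checked under other scalings. The median over all tested genes was -0.18 in ZebDKO cells against control. These counts are therefore not read as a result about the pathway. Acta2, encoding smooth muscle actin, was at 7.13 ± 0.46 TPM in control, at 0.17 ± 0.06 TPM in Runx1KO and at 20.9 ± 0.85 TPM in ZebDKO cells (SD, n = 3), with log2 differences of -2.80 and 1.43. Fibronectin (Fn1) fell by 1.50 on the log2 scale in Runx1KO cells and differed by 0.87 in ZebDKO cells. Ccn2, a matricellular protein, differed by -0.70 and 0.79. Snai1 differed by -0.76 in Runx1KO cells and by 0.28 in ZebDKO cells (adjusted p = 0.0372 in limma), where its values overlapped those of control. The cell cycle inhibitor Cdkn2b rose in both, by 1.09 and 1.25. In the direct comparison of the knockouts 5 of the 12 response genes were called higher in ZebDKO cells and none lower, where 6.60% of all tested genes were called higher and 9.20% lower. They included Acta2 (4.23), Fn1 (2.37), Ccn2 (1.49) and Snai1 (1.04), a transcription factor that represses epithelial genes. Inhbe, Itgb6 and Acta2 passed the filter of some of these comparisons only through the group in which they were higher, and so had to differ there.

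**Figure D4:**
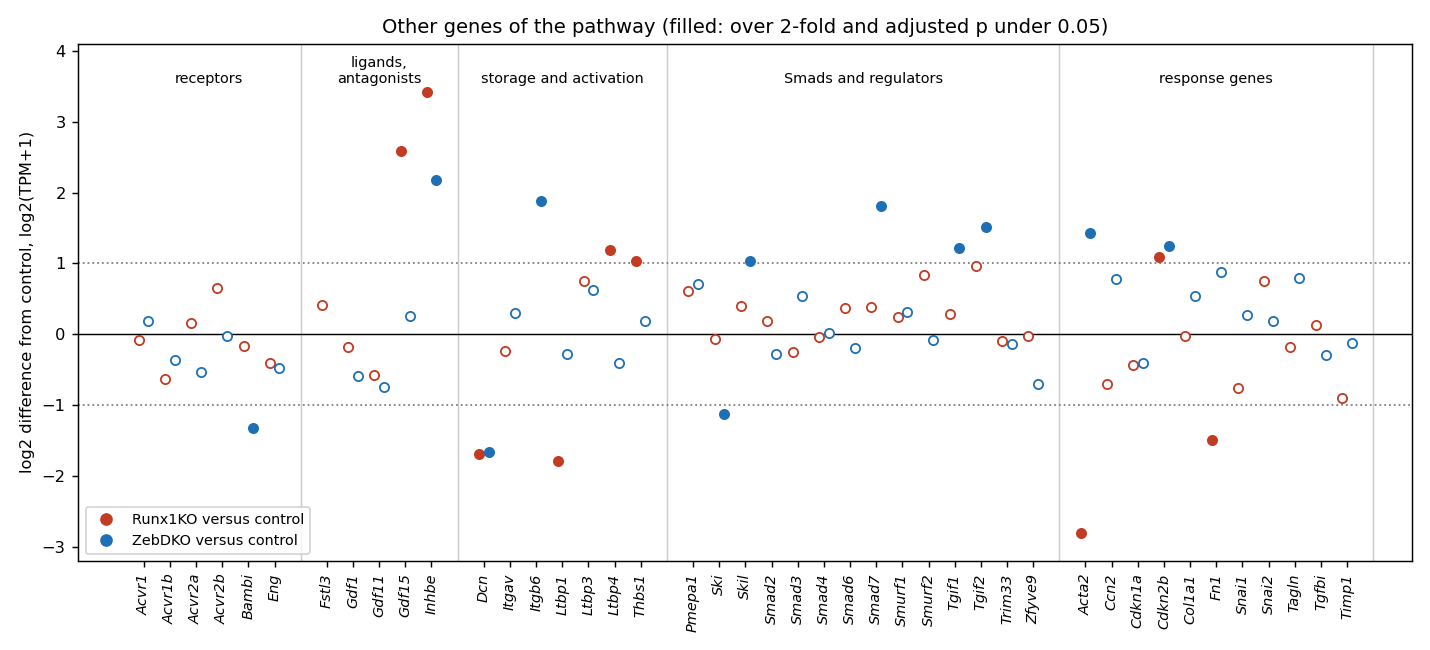
Log2 difference from control on the log2(TPM + 1) scale (vertical axis) of tested pathway genes other than the 10 described above, by role, in Runx1KO (red) and ZebDKO cells (blue). Filled points were over 2-fold with an adjusted p under 0.05. The response gene Acta2 stood at -2.80 in Runx1KO and 1.43 in ZebDKO cells.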

How the data were processed

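RNA-seq of control, Runx1KO and ZebDKO cells was deposited by the authors as TPM, in a table of 9 libraries with 1 decimal and a second table of the control and Runx1KO libraries with 2 decimals. Per the labels, the authors' tools included featureCounts 1.6.2 and DESeq2 1.26.0, and the build was mm9. ChIP-seq peaks were called by the authors with MACS2 and deposited as 1 list per antibody and line with a fold enrichment and a −log10 q per peak. The ATAC-seq lists also hold the authors' own log2 fold changes and significance values, which were not used. TPM keeps no depth, so no count model and no interval on counts was possible.

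Genes had to reach 1 TPM in 3 or more of the 6 libraries compared, and were then fitted with limma 3.58.1 (R 4.3.3, trend in the prior variance) on log2(TPM + 1), two-sided, with Benjamini-Hochberg adjustment over all genes tested, and the procedure was tested on simulated data. All adjusted p-values come from this fit. The study describes the libraries as biological triplicates, from cells of each line cultured in triplicate, and p-values measure the spread between them. Whether that spread includes differences between clones is not known from the sources used here. Replicate numbers were not treated as pairs. Peaks were placed with the GENCODE vM1 annotation of mm9. Peaks counted as nearby when their middle lay within 100 kb of the annotated start, and as overlapping from 1 bp. A total of 670 peaks on unplaced sequences were left out of the placement. Motifs were sought in the mm9 genome sequence, and promoters of all annotated coding genes served for comparison.

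The 10 genes, the pathway list and the marker lists were chosen with earlier results of these data known. Named pathway genes were those called in either knockout, and those named from the direct comparison of the knockouts are response genes called there. Runx1 summit windows were printed for Runx1-dependent peaks nearest to one of the 10 genes. One response gene of the pathway list and one sequence are not reported here, and the counts include that gene.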

Additional observations from a re-analysis of the deposited data

Results flagged for a closer look

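For 3 genes the differences from control had opposite signs in the knockouts. Both of these differences, and the direct difference between the knockouts, had an adjusted p under 0.05 in limma. Tgfb2 fell in Runx1KO cells (-2.33) and was higher in ZebDKO cells (0.36), and ZebDKO exceeded Runx1KO cells by 2.69 on the log2 scale, in 3 of 3 libraries. Tgfb3 was higher in Runx1KO cells (0.62), with a direct difference of -0.76. Its difference from control in ZebDKO cells (-0.14) turned positive with median-ratio scaling and with quantile normalization, so opposite directions are given for Tgfb2 and Tgfbr2 and not for Tgfb3. Tgfbr2 was higher in Runx1KO cells (0.27) and lower in ZebDKO cells (-0.51), with a direct difference of -0.78. Groups of 3 libraries were not examined for single outlying values.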

How the results depend on the processing

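Of 30 differences (10 genes in 3 comparisons), 22 kept their direction and their call (over 2-fold with an adjusted p under 0.05, or not) under every alternative run. The adjusted p alone stayed on its side of 0.05 for 27, and crossed it for Fst in Runx1KO against control (3 of 16 alternatives), Tgfb3 in ZebDKO against control (10 of 15) and Inhba between the knockouts (1 of 15, 0.00665 without ZebDKO replicate 2). The alternatives were other pseudocounts (0.1 or 0.5), the filter dropped or set at 5 TPM, scaling by median ratios or quantiles, 1 fit over the 9 libraries, no variance trend, the replicate block, the second table and each library left out. The direction reversed for values near 0: Tgfb3 in ZebDKO against control with median-ratio scaling (0.049) and quantile normalization (0.041), Inhba between the knockouts with quantile normalization (0.080), and Tgfb1 in Runx1KO against control, which ranged from -0.0094 to 0.040 with single libraries left out. Inhba in Runx1KO cells fell under the 2-fold limit with quantile normalization (0.97) and in the second table (0.95), which leaves 3 called genes. Between the knockouts Tgfb1 gained its call (1.12) and Tgfbr3 lost it (-0.9999) with median-ratio scaling, and Tgfbr3 lost it with quantile normalization (-0.88). In ZebDKO against control 5 of the 10 genes were called with median-ratio scaling and 5 with quantile normalization, Inhba and Tgfb1 being added. With single libraries left out, the called genes ranged from 3 to 4 in both comparisons with control. At 1.3-fold, 8 of the 10 genes were called in ZebDKO against control and 9 between the knockouts. Of the 43 tested genes of the pathway list, 25, 26 and 32 were called at that limit in the 3 comparisons. The shares of all tested genes called at that limit were 37.2%, 52.0% and 51.9%. Inhbb in Runx1KO cells ranged from -7.67 with a pseudocount of 0.1 to -4.44 in the second table. Within 20 kb of the start, 4 genes had a Runx1-dependent, 1 a Runx1KO-induced and 3 a Runx1 peak. Runx1KO-induced peaks were near 3 genes by gene body and near 3 by nearest start. The causes of these changes were not tested. Same-numbered replicates did not deviate together (correlations from -0.049 to 0.040). Whether they were cultured or prepared together is not given in the sources used here, and these correlations cannot show it. With the replicate block 4, 3 and 4 of the 10 genes were called, as without it. TPM of 0.1 to 0.2 sits at the rounding of the first table, which limits the size of the Inhbb difference.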
